A study of Mus musculus with 8 samples.

Results

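The genes described here are 50 genes of mitosis and of the passage from G2 into M phase, taken from the 55414 genes of the expression table by gene symbol. All 50 were found, and all 50 passed the filter on low values. They were measured by RNA-seq in B16F10 cells, a mouse melanoma line, in 8 libraries that fall into 4 groups of 2, each kept at its oxygen level for 24 h. WT cells and CypD KO cells, in which *Ppif*, the gene of the mitochondrial protein cyclophilin D (CypD), had been targeted with CRISPR/Cas9 and clones selected with puromycin, were kept at 21% O2. Control cells, stably transfected with pcDNA, and CypD OE cells, stably transfected with pcDNA-CypD, had been selected with G418 and were kept at 1% O2. WT cells thus carried no vector, the Control cells differed from WT in both oxygen and transfection, and how many clones stand behind each group was not stated in the sources used here.

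A cell enters mitosis when cyclin B and the kinase CDK1 become active, a switch thrown by the CDC25 phosphatases and sustained by Polo-like and Aurora kinases. Chromosomes then condense, spindle microtubules attach to them at the kinetochore, a checkpoint holds the cell until every chromosome is attached, and the anaphase-promoting complex then destroys cyclin B and securin so that sister chromatids part. The central spindle and a contractile ring finish the division. Most genes of this programme are transcribed only late in the cell cycle, through promoters that bind the DREAM and MMB complexes at a CHR element, NF-Y at CCAAT boxes and FOXM1, and their summed RNA is widely used as a mark of proliferation.

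Promoter windows from RefSeq (build GRCm38.p6, 250 bases before to 50 after the annotated start) were found for 41 of the 50 genes. The CHR, spelled TTTGAA and searched on both strands, occurred in the windows of 30 of the 41 genes (73.2%), against 44.7% of 76 other mitosis genes, 21.4% of 42 S phase genes, 14.3% of the 9532 tested genes with a window and 20.2% of all 27025 genes with a window. In 26 of the 30 genes a match lay within 50 bases of the start. The CCAAT box, spelled CCAAT and searched on both strands, occurred in 32 of the 41 genes (78%), against 43.6% of tested genes and 41.1% of all genes with a window. A match of one motif can share a base with a match of the other. Both motifs were present in 26 of the 41 genes (63.4%) and in 7.32% of tested genes with a window. The CHR was found alike in genes that were higher in CypD KO cells (7 of 9), lower (14 of 19) and neither (9 of 13), so its presence in the window did not separate the directions described further on. These are matches of letters in a window and do not show that a factor binds there.

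The stretches around the CHR are shown for 5 genes that were higher and 4 that were lower in CypD KO cells, since genes of both directions carry the same element. Each is printed on its gene's strand, each CHR is in capitals (TTCAAA where it lies on the opposite strand), and bases are numbered with 1 at the start and negative numbers before it. *Anln* has a further CHR at base 29.
Kif23 (chr9:61946780-61946809, minus strand, base 3): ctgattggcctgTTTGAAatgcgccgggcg
Anln (chr9:22389168-22389197, minus strand, base 22): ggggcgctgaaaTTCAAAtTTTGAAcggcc
Ckap2 (chr8:22185903-22185932, minus strand, base -101): gctttgttcgatTTTGAAatttctcgccgg
Prc1 (chr7:80294434-80294463, plus strand, base -5): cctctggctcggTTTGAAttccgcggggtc
Cdc20 (chr4:118437344-118437373, minus strand, base -18): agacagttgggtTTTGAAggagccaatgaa
Plk1 (chr7:122159453-122159482, plus strand, base 31): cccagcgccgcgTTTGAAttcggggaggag
Aurka (chr2:172370521-172370550, minus strand, base 33): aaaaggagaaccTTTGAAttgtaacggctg
Cdk1 (chr10:69352910-69352939, minus strand, base -15): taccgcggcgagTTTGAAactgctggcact
Cenpa (chr5:30666890-30666919, plus strand, base 17): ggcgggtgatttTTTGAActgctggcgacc

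The 250 bases before the start are shown whole for *Ccnb1* and *Top2a*, both lower in CypD KO cells, because the former lacked a CHR match and the latter held several. The window of *Ccnb1* held no match to TTTGAA and 2 CCAAT boxes, and that of *Top2a* held 2 CHR matches and 6 CCAAT boxes. Other spellings of the CHR were not searched, so an element spelled otherwise would be missed. Both motifs are in capitals, on either strand.
Ccnb1 (chr13, minus strand): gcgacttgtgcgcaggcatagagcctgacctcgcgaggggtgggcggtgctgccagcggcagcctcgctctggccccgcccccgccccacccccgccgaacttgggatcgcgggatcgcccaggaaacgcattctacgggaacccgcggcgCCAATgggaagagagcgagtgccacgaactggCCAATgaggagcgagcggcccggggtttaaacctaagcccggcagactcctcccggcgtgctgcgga
Top2a (chr11, minus strand): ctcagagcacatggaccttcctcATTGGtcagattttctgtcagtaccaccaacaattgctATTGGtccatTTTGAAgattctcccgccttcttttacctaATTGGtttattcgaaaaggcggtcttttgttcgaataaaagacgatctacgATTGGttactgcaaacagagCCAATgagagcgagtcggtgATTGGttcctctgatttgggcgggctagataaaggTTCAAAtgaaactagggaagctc

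**Figure D1:**
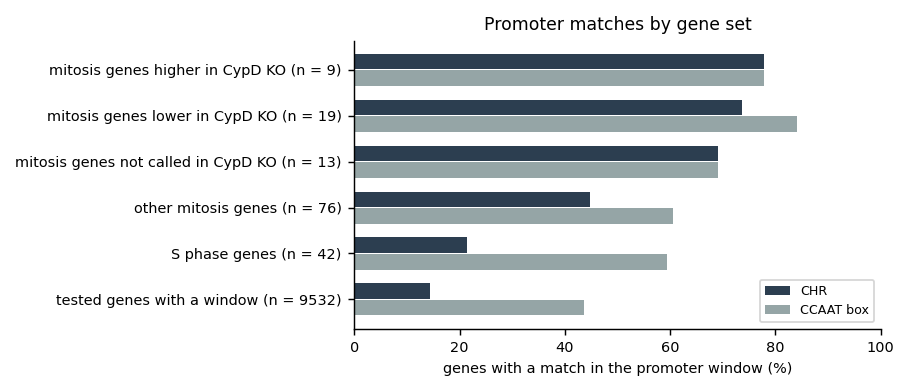
Bars give the percent of genes whose promoter window (250 bases before to 50 after the start) holds a CHR (dark) or a CCAAT box (light), by set of genes, with the number of windows beside each set. The CHR stood at 77.8%, 73.7% and 69.2% in the mitosis genes that were higher, lower and neither in CypD KO cells, and at 14.3% in tested genes.

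Values are TPM, which the authors estimated with RSEM and which are relative to transcript length and to all other RNA of the library. In cultures measured as a whole, fewer cells in G2 and M phase cannot be told apart from less of these RNAs per cell. The low TPM values stepped in units of 0.0815 to 0.098 TPM for 1 fragment on an effective length of 1 kb, and by that estimate the fewest fragments behind a value of the 50 genes were 130, for *Pttg1*, with 347 for *Cdc25c*. *Ppif* was at 50.7 and 49.99 TPM in WT against 10.4 and 12.1 TPM in CypD KO libraries, but at 44.6 and 42.3 TPM in Control and only 50.3 and 49.3 TPM in libraries labelled CypD OE (log2 fold change 0.19, limma adjusted p = 0.0794), so that directions drawn from the latter rest on their label. All 7 melanocyte markers were expressed, with sums of 12433 to 20984 TPM. Keratinocyte markers were listed at 0, leukocyte and endothelial markers summed to at most 0.43 and 1.18 TPM, and of the fibroblast list *Dcn* was at 0 and *Lum* at 0.08 TPM or less. The sum of the fibroblast list, held mostly by *Col1a2* and *Postn*, was 17.7 and 15.4 TPM in WT against 36.9 and 34 TPM in CypD KO libraries. The rise was that of *Postn*, at 8.04 and 8.07 TPM in WT against 34.8 and 31.2 TPM in CypD KO. *Col1a2* went the other way, from 9.03 and 6.87 TPM to 1.09 and 2.17 TPM.

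All 50 genes were well expressed in every library. Their TPM ranged from 16.9 for *Cdc25c* in a CypD KO library to 497 for *Cdk1* in a WT library, and the median over the 50 genes was 91.9 to 113 TPM per library. *Cdk1*, the kinase of mitotic entry, and *Top2a*, the topoisomerase that untangles chromosomes, had the highest levels per length, and *Kif14*, *Pttg1*, *Ttk* and *Cdc25c* the lowest. The sum over the 50 genes was 6103 and 6164 TPM in WT, 5817 and 5853 TPM in CypD KO, 6373 and 6434 TPM in Control, and 6596 and 6541 TPM in libraries labelled CypD OE. The groups did not overlap in this sum, which was lowest in CypD KO cells and highest in libraries labelled CypD OE. In separate assays, the paper reported no effect of CypD KO, and no significant effect of CypD OE, on proliferation in culture. How the sum relates to proliferation was not tested here.

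**Figure D2:**
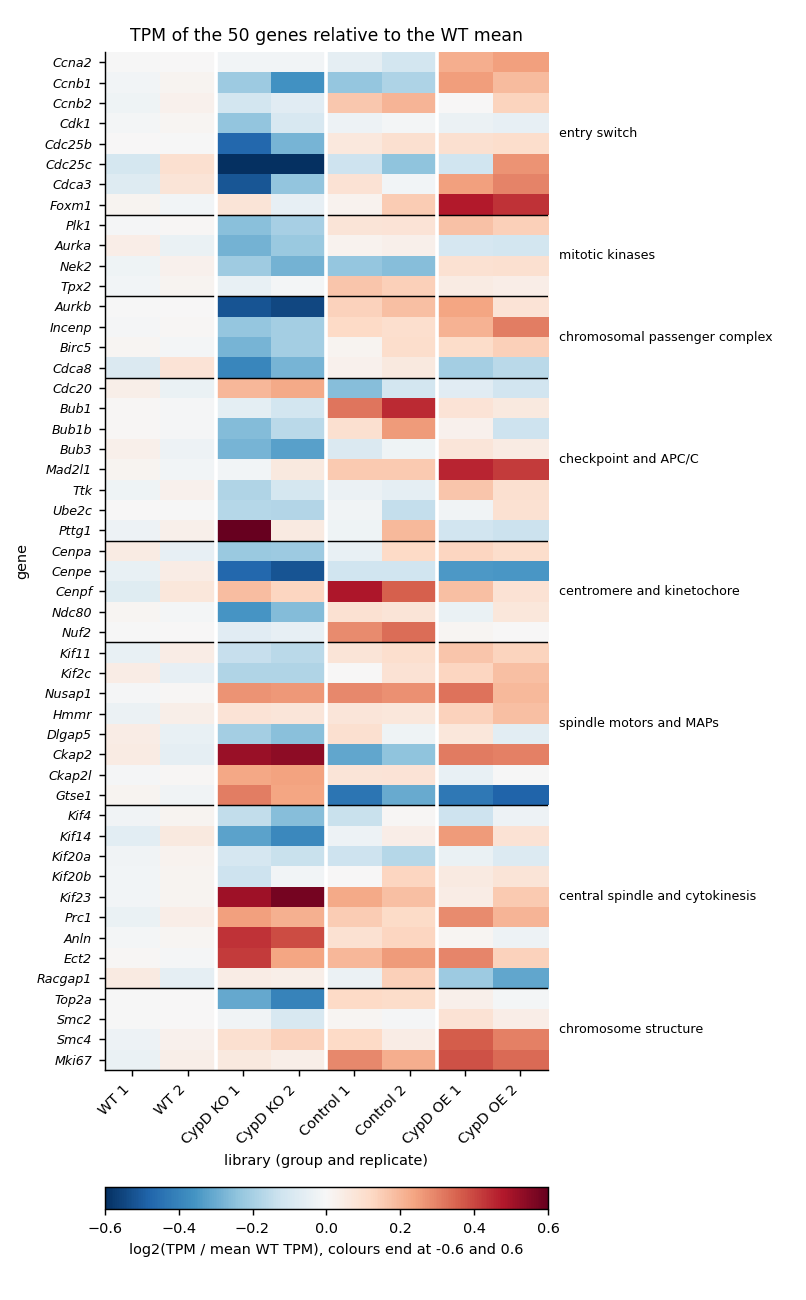
Each row is a gene, ordered by role, and each column a library; colour gives the log2 ratio of TPM to the WT mean, ending at -0.6 (blue) and 0.6 (red). In the CypD KO columns the rows of the passenger complex are all blue, while Kif23, Anln, Ect2 and Ckap2 are red; the libraries of a group look alike.

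CypD KO and WT cells were compared at 21% O2 to ask how loss of CypD bears on this programme. The mitosis genes did not move as a block: 24 of the 50 were lower and 10 were higher in CypD KO cells by limma, at an adjusted p under 0.05 over all 13526 genes tested, and 16 were neither. Of all genes tested, 18.4% were lower and 30.1% were higher, 48.4% in either direction, so that lower values made up a larger share of the mitosis genes (48%) and higher values a smaller one (20%). The median log2 fold change was -0.13 over the 50 genes and 0.09 over all genes tested. No gene of the 50 changed by more than 1 on the log2 scale with TPM as deposited, although *Cdc25c* was at -1.02 with the GC and length correction. Of all tested genes, 1205 changed by more than 1 and were also called. The genes of mitotic entry, the mitotic kinases, the passenger complex and the kinetochore included 15 of the 24 lower genes and none of the higher ones, while 8 of the 10 higher genes belonged to the spindle-associated and central spindle groups.

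How far these counts reach depends on scaling: with median-of-ratios rescaling, which moved the median of all tested genes from 0.09 to -0.01, 8 of the 50 were higher and 33 lower, and with a correction for GC content and transcript length only *Kif23*, *Anln* and *Ckap2* were higher and 35 lower. Of all tested genes, 23.7% were higher and 25.7% lower with the former, and 20.8% and 29.9% with the latter. The gap between the median of the 50 genes and that of all tested genes was -0.22 with TPM as deposited and -0.23 under each of these. Without either CypD KO replicate both counts fell, as did those of all tested genes. The median of the 50 genes was -0.105 without CypD KO replicate 1 and -0.128 without CypD KO replicate 2. Of the 34 calls, 17 held in all 17 alternatives.

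Of the 8 genes of the entry switch, 5 were lower and none was higher, with a median log2 fold change of -0.23. *Ccnb1*, which encodes cyclin B1, the partner of CDK1, was at 164 and 168 TPM in WT against 142 and 129 TPM in CypD KO libraries (log2 fold change -0.29 ± 0.05, limma adjusted p = 0.00407, where ± gives the standard error, as in all later fold changes). *Cdk1* itself was at 488 and 497 TPM in WT against 417 and 460 TPM in CypD KO (log2 fold change -0.17 ± 0.04, limma adjusted p = 0.0200), a call lost in 5 of the 17 alternatives. Each CypD KO library was thus below both WT libraries in either gene, and the mean of *Ccnb1* fell by 18.1% and that of *Cdk1* fell by 10.9%. *Cdc25c*, a phosphatase that removes the inhibitory phosphates from CDK1, was at 32.7 and 37.7 TPM in WT against 16.9 and 20.7 TPM in CypD KO. Its log2 fold change of -0.87 ± 0.15 (limma adjusted p = 0.00301) exceeded in size that of any other of the 50 genes in the 3 comparisons, and the gene shares 1153 exon bases with a gene on the opposite strand. *Cdc25b*, its relative, had a log2 fold change of -0.36, and *Cdca3*, a trigger of mitotic entry, one of -0.37, both lower (limma adjusted p = 0.00377 and 0.0171). The call of *Cdca3* was lost in 3 of the 17 alternatives.

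The other 3 entry genes were not called with TPM as deposited. By contrast, 7 of the 8 entry genes were lower with median-of-ratios rescaling, 8 with the GC and length correction and 7 with chromosome medians removed. Of all tested genes, 25.7%, 29.9% and 24.2% were lower with these, against 18.4% with TPM as deposited. *Ccna2*, which encodes cyclin A2 of S and G2 phase, was at 237 and 237 TPM in WT against 234 and 234 TPM in CypD KO (log2 fold change -0.02 ± 0.03, limma adjusted p = 0.667). Its log2 fold change was -0.13, -0.18 and -0.23 under these settings, all lower. *Ccnb2*, the second B-type cyclin gene, had a log2 fold change of -0.09 (limma adjusted p = 0.209), and was lower with the first 2 of these settings, at -0.20 and -0.22. The *Ccnb1* to *Ccnb2* ratio, which scaling of a whole library does not touch, was 1.78 and 1.76 in WT and 1.64 and 1.44 in CypD KO. It was lower still in Control, at 1.35 and 1.35, and was 2.1 and 1.84 in libraries labelled CypD OE. A low ratio was thus not particular to CypD KO. *Foxm1*, a transcription factor of the G2/M programme, was at 103 and 101 TPM in WT against 107 and 98.2 TPM in CypD KO, with overlapping libraries (log2 fold change 0.01, limma adjusted p = 0.874). Chromosome 6, which holds *Foxm1*, *Mad2l1* and *Cdca3*, had a median log2 fold change of 0.26 over its 710 tested genes in this comparison, and with chromosome medians removed *Foxm1* was lower, at -0.265.

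Of the mitotic kinases and their activators, *Plk1*, *Aurka* and *Nek2* were lower and *Tpx2* was not called. *Plk1*, the Polo-like kinase that acts from mitotic entry to cytokinesis, was at 126 and 128 TPM in WT against 107 and 111 TPM in CypD KO (log2 fold change -0.22 ± 0.03, limma adjusted p = 0.00165). *Aurka*, the Aurora kinase of the spindle poles, was at 117 and 111 TPM in WT against 93.7 and 97.9 TPM in CypD KO (log2 fold change -0.25 ± 0.04, limma adjusted p = 0.00243). *Nek2*, a kinase of centrosome separation, had a log2 fold change of -0.24 (limma adjusted p = 0.00485). *Tpx2*, which encodes the activator of Aurora A, had a log2 fold change of -0.03 with overlapping libraries (limma adjusted p = 0.492). It was lower only with median-of-ratios rescaling or the GC and length correction, so kinase and activator did not move by the same amount.

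With TPM as deposited, the chromosomal passenger complex was the one group in which every gene was lower, with a median log2 fold change of -0.29. *Aurkb* (chromosome 11, 68936467 to 68944764 of GRCm39), its kinase, was at 105 and 106 TPM in WT against 73.9 and 72.4 TPM in CypD KO and so fell by 30.7% (log2 fold change -0.52 ± 0.05, limma adjusted p = 0.000288). *Birc5*, which encodes survivin, was at 293 and 289 TPM in WT against 240 and 253 TPM in CypD KO (log2 fold change -0.24 ± 0.04, limma adjusted p = 0.00293). The log2 fold changes of *Cdca8* and *Incenp*, which encode borealin and the scaffold subunit, were -0.33 and -0.21 (limma adjusted p = 0.00516 and 0.00525). The 4 genes summed to 625 and 637 TPM in WT and to 502 and 523 TPM in CypD KO, with no overlap, and were lower in every setting run. The 4 genes of the kinase group were also all lower with median-of-ratios rescaling and with the GC and length correction. With the latter, so were all 8 genes of the entry switch.

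In the kinetochore group, 3 of 5 genes were lower. *Cenpe* (chromosome 3, 134918298 to 134979372 of GRCm39), a kinetochore motor that carries chromosomes to the spindle equator, was at 80.5 and 85.7 TPM in WT against 60.0 and 58.0 TPM in CypD KO (log2 fold change -0.49 ± 0.04, limma adjusted p = 0.000166). *Ndc80*, a subunit of the complex that holds microtubule ends, was at 77.4 and 76.0 TPM in WT against 60.1 and 64.0 TPM in CypD KO (log2 fold change -0.30 ± 0.05, limma adjusted p = 0.0029). *Cenpa*, the histone variant of centromeres, was at 98.9 and 92.5 TPM in WT against 82.1 and 82.4 TPM in CypD KO (log2 fold change -0.22 ± 0.06, limma adjusted p = 0.0247, lost in 5 alternatives). All of these separated the groups. *Nuf2*, the partner of *Ndc80* in the same complex, had a log2 fold change of only -0.06 (limma adjusted p = 0.208), and *Cenpf*, an outer kinetochore gene, one of 0.15 (limma adjusted p = 0.108).

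Of the 8 genes of the spindle checkpoint and the anaphase-promoting complex, 2 were lower and 1 was higher with TPM as deposited. In the same group, 5 were lower and none higher with median-of-ratios rescaling, with the GC and length correction and with chromosome medians removed. The share of all tested genes that were lower also rose with these, from 18.4% to 25.7%, 29.9% and 24.2%. *Bub3*, a checkpoint protein that recruits others to the kinetochore, was lower (log2 fold change -0.30, limma adjusted p = 0.00078). Also lower was *Ube2c*, the ubiquitin-conjugating enzyme of the anaphase-promoting complex, at 238 and 237 TPM in WT against 211 and 210 TPM in CypD KO (log2 fold change -0.17 ± 0.05, limma adjusted p = 0.0295), a call lost in 6 alternatives. *Cdc20*, the activator of that complex and the target of the checkpoint, was higher, at 68.1 and 64.6 TPM in WT against 76.2 and 77.8 TPM in CypD KO (log2 fold change 0.21 ± 0.06, limma adjusted p = 0.0218), also lost in 6 alternatives. The other checkpoint kinases and effectors did not pass the test with TPM as deposited. *Bub1* was at 106 and 105 TPM in WT against 101 and 97.4 TPM in CypD KO (log2 fold change -0.08, limma adjusted p = 0.199), *Bub1b* had a log2 fold change of -0.21 (limma adjusted p = 0.0516), and *Ttk* one of -0.14 (limma adjusted p = 0.0818). *Mad2l1*, which encodes the MAD2 inhibitor of CDC20, was at 157 and 153 TPM in WT against 153 and 161 TPM in CypD KO, with overlapping libraries (log2 fold change 0.02, limma adjusted p = 0.699), but lower, at -0.26, with chromosome medians removed. *Pttg1*, which encodes securin, differed most between replicates, at 22.3 and 23.3 TPM in WT against 34.7 and 23.7 TPM in CypD KO (log2 fold change 0.32 ± 0.16, limma adjusted p = 0.154).

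**Figure D3:**
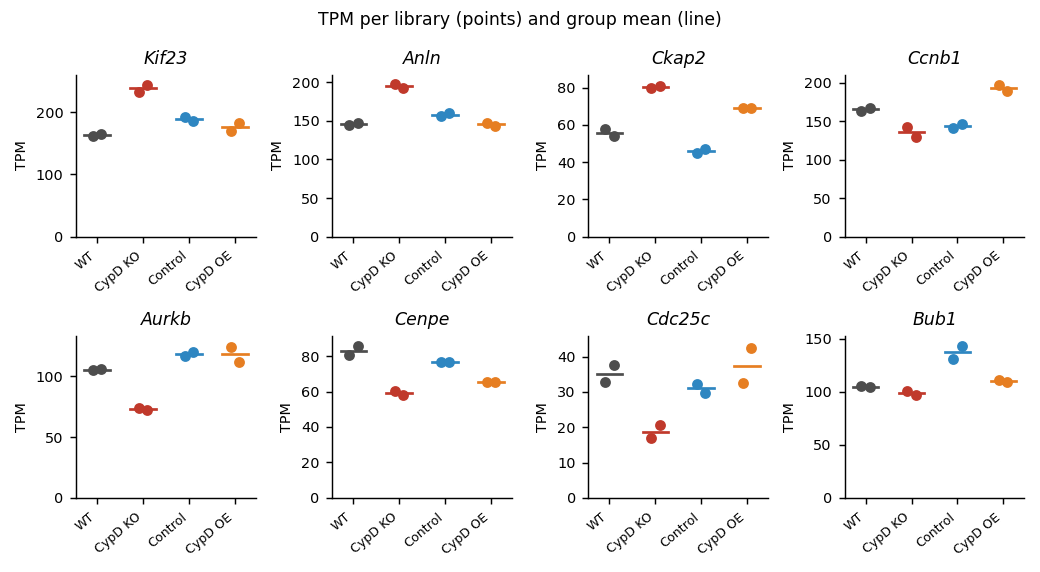
TPM of 8 genes in each library (points) with the group mean (line), from 0 on each axis. Kif23, Anln and Ckap2 were highest in CypD KO, Aurkb, Cenpe and Cdc25c were lowest there, Ccnb1 was highest in libraries labelled CypD OE, and Bub1 was highest in Control.

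Of the 10 genes that were higher in CypD KO cells, 4 belonged to the central spindle and cytokinesis group, in which 3 others were lower. *Kif23* (chromosome 9, 61823187 to 61854074 of GRCm39), the kinesin of the centralspindlin complex, was at 163 and 166 TPM in WT against 233 and 244 TPM in CypD KO, a rise of 45.4% (log2 fold change 0.54 ± 0.05, limma adjusted p = 0.00014). *Anln* (chromosome 9, 22242402 to 22300501), which encodes anillin of the contractile ring, was at 145 and 148 TPM in WT against 197 and 192 TPM in CypD KO (log2 fold change 0.41 ± 0.03, limma adjusted p = 0.000112). Both kept their call in every setting run, with log2 fold changes of 0.378 to 0.571 for *Kif23* and 0.264 to 0.429 for *Anln*. *Ect2*, the exchange factor that activates RhoA at the cell equator, had a log2 fold change of 0.32 (limma adjusted p = 0.0101), a call lost in 3 of the 17 alternatives. The median of chromosome 3, which holds *Ect2*, was 0.21. With chromosome medians removed its log2 fold change was 0.11 and not called. *Prc1*, which bundles the microtubules of the central spindle, was at 171 and 181 TPM in WT against 209 and 204 TPM in CypD KO (log2 fold change 0.23 ± 0.04, limma adjusted p = 0.00388). It shares 1092 exon bases with *Rccd1* on the opposite strand, listed at a mean of 7.62 TPM.

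Not all genes of the central spindle group went this way, and its median log2 fold change of 0.04 turned to -0.07 with median-of-ratios rescaling. *Racgap1*, the partner of KIF23 in centralspindlin, had overlapping libraries and a log2 fold change of 0.04 (limma adjusted p = 0.646). *Kif20a*, a kinesin that carries the passenger complex to the central spindle, was lower, at 94.3 and 97.3 TPM in WT against 89.3 and 87.4 TPM in CypD KO (log2 fold change -0.12 ± 0.04, limma adjusted p = 0.0458). The call was lost in 11 of the 17 alternatives, and the gene shares 2748 exon bases with *Cdc23* on the opposite strand. *Kif14* and *Kif4*, kinesins of cytokinesis and of chromosome arms, were lower by log2 fold changes of -0.34 and -0.20 (limma adjusted p = 0.0125 and 0.0487), and *Kif20b* was not called (-0.07). The calls of *Kif14* and *Kif4* were lost in 2 and 10 of the 17 alternatives. Summed over the group, the 9 genes stood at 988 and 997 TPM in WT against 1163 and 1146 TPM in CypD KO, and the ratio of this sum to that of the passenger complex was 1.58 and 1.56 in WT and 2.32 and 2.19 in CypD KO. It was 1.49 to 1.60 in the other 4 libraries. Both groups were drawn up with earlier results of these data known. The rise of the sum was that of *Kif23*, *Anln*, *Prc1* and *Ect2*, while the median of the group was 0.04.

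Of the 8 spindle motors and microtubule-associated proteins, 4 were higher and 3 lower. *Ckap2* (chromosome 8, 22658164 to 22675852 of GRCm39), a microtubule-associated protein of the spindle, was at 57.8 and 53.8 TPM in WT against 79.9 and 81.1 TPM in CypD KO (log2 fold change 0.52 ± 0.05, limma adjusted p = 0.000204). The median of its chromosome was 0.21, and with chromosome medians removed its log2 fold change was 0.29, still called. *Gtse1*, *Nusap1* and *Ckap2l*, which also act on spindle microtubules, had log2 fold changes of 0.27, 0.26 and 0.24 (limma adjusted p = 0.00791, 0.00491 and 0.0017). *Kif11*, the motor that pushes the spindle poles apart, was lower, at 86.6 and 92.0 TPM in WT against 81.2 and 79.9 TPM in CypD KO (log2 fold change -0.15 ± 0.04, limma adjusted p = 0.0246, lost in 5 alternatives). *Dlgap5* and *Kif2c*, a stabilizer and a depolymerase of microtubules, were lower too, by -0.22 and -0.18 (limma adjusted p = 0.0263 and 0.0304). The calls of these genes were lost in 5 and 6 alternatives. *Hmmr*, a spindle assembly factor, was at 88.6 and 93.1 TPM in WT against 96.3 and 95.4 TPM in CypD KO, which was not called (log2 fold change 0.08, limma adjusted p = 0.145).

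Among the genes of chromosome structure, *Top2a* was lower, at 411 and 412 TPM in WT against 333 and 311 TPM in CypD KO (log2 fold change -0.35 ± 0.04, limma adjusted p = 0.000285). *Mki67*, the gene of the Ki-67 proliferation antigen, was at 186 and 197 TPM in WT against 200 and 196 TPM in CypD KO, with overlapping libraries (log2 fold change 0.05, limma adjusted p = 0.376), and lower, at -0.10, with the GC and length correction. The condensin genes *Smc4* and *Smc2* had log2 fold changes of 0.12 and -0.06. That of *Smc4* passed the test by little (limma adjusted p = 0.0499), and the call was lost in 14 of the 17 alternatives. The log2 fold change of *Smc4* was -0.04 with the GC and length correction and -0.09 with chromosome medians removed.

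Ratios between genes within a library are free of scaling between libraries, and the pairs given here were chosen after their values had been seen. *Kif23* stood at 1.54 and 1.57 times *Aurkb* in WT and at 3.16 and 3.37 times in CypD KO, with 1.36 to 1.65 in the other 4 libraries. *Anln* stood at 0.354 and 0.358 of *Top2a* in WT, 0.594 and 0.617 in CypD KO, and 0.349 to 0.361 in the others. *Ckap2* stood at 0.718 and 0.628 of *Cenpe* in WT and at 1.33 and 1.40 in CypD KO, but here the libraries labelled CypD OE were also high, at 1.06 and 1.06 against 0.587 and 0.616 in Control.

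**Figure D4:**
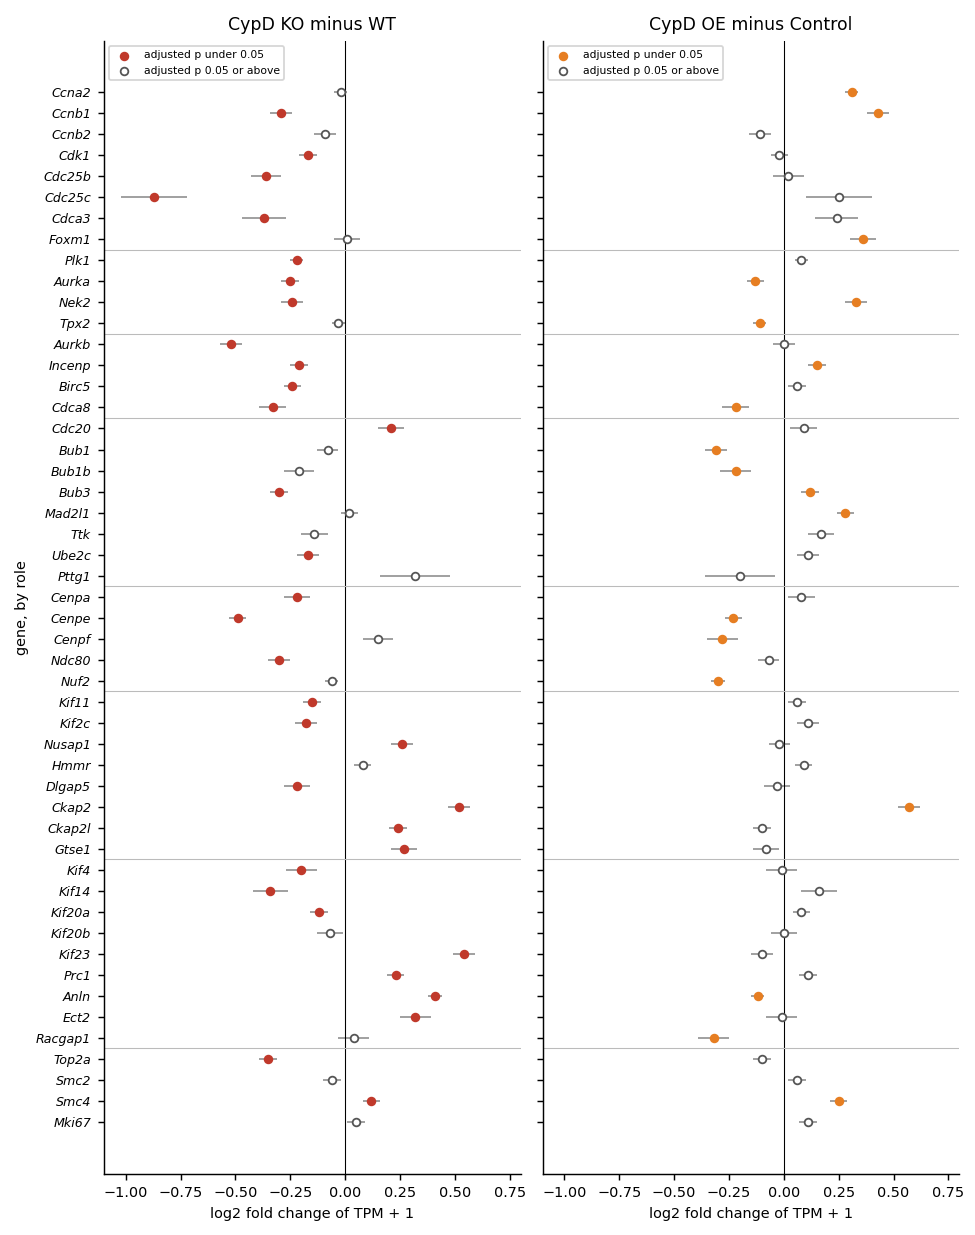
Points give the log2 fold change of TPM + 1 for each gene, ordered by role, with bars of 1 standard error from limma; filled points had an adjusted p under 0.05. In CypD KO minus WT 24 filled points lie left of 0 and 10 right of it, and in CypD OE minus Control 10 lie left and 9 right.

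Control cells and cells labelled CypD OE were compared at 1% O2 to ask what added CypD does under hypoxia. Of the 50 genes, 9 were higher and 10 lower in libraries labelled CypD OE (limma, adjusted p under 0.05), close to the 19% and 18.3% of all tested genes, of which 37.4% were called in either direction. The median log2 fold change was 0.04 over the 50 genes and 0.00 over all. The higher genes included 3 of the 8 entry genes, and the lower ones 3 of the 5 kinetochore genes. Counted anew in each setting, 6 genes were lower with the replicate block, 5 with chromosome medians removed and 5 with eBayes without trend. Of all tested genes, 17.3%, 17.8% and 17.3% were lower there. Fewer genes were lower whenever a library was left out, of the 50 and of all tested genes. Of the 19 calls, 8 held in all 17 alternatives.

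*Ckap2* had the largest increase, from 44.98 and 47.2 TPM in Control to 69.2 and 68.9 TPM (log2 fold change 0.57 ± 0.05, limma adjusted p = 0.000234). *Ccnb1* followed, at 141 and 146 TPM in Control against 197 and 189 TPM in libraries labelled CypD OE (log2 fold change 0.43 ± 0.05, limma adjusted p = 0.00113). In neither gene did the groups overlap. The median of chromosome 13, which holds *Ccnb1*, was 0.25 here. With chromosome medians removed the log2 fold change of *Ccnb1* was 0.15, still called and below those of *Nek2* (0.43) and *Ccna2* (0.38). *Ccna2* was at 229 and 220 TPM in Control against 276 and 282 TPM in libraries labelled CypD OE (log2 fold change 0.31 ± 0.03, limma adjusted p = 0.000385), and it shares 714 exon bases with *Exosc9* on the opposite strand. *Foxm1* was at 103 and 113 TPM in Control against 141 and 137 TPM in libraries labelled CypD OE (log2 fold change 0.36 ± 0.06, limma adjusted p = 0.00374). *Mad2l1* was at 173 and 173 TPM in Control against 213 and 207 TPM (log2 fold change 0.28 ± 0.04, limma adjusted p = 0.00134). The last pair lies on chromosome 6, where the median of 710 tested genes was 0.21, and with chromosome medians removed their log2 fold changes were 0.138 and 0.056 and neither was called. *Nek2*, *Smc4*, *Incenp* and *Bub3* were also higher, by 0.33, 0.25, 0.15 and 0.12. The calls of *Nek2* and *Smc4* held in all 17 alternatives. Those of *Incenp* and *Bub3* were lost in 8 and 13. *Cdk1*, the partner of these cyclins, was at 482 and 488 TPM in Control against 481 and 475 TPM in libraries labelled CypD OE (log2 fold change -0.02, limma adjusted p = 0.762).

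The largest decreases were those of *Racgap1*, *Bub1* and *Nuf2*. *Racgap1* was at 157 and 177 TPM in Control against 138 and 129 TPM in libraries labelled CypD OE (log2 fold change -0.32 ± 0.07, limma adjusted p = 0.0104). The median of chromosome 15, which holds it, was -0.18. With chromosome medians removed its log2 fold change was -0.14 and not called, less than for *Cenpf* (-0.18) and *Cenpe* (-0.16). It was not called without CypD OE replicate 2 either. *Bub1*, the checkpoint kinase of the kinetochore, was at 131 and 143 TPM in Control against 111 and 109 TPM (log2 fold change -0.31 ± 0.05, limma adjusted p = 0.00274). *Nuf2* was at 123 and 127 TPM in Control against 102 and 101 TPM (log2 fold change -0.30 ± 0.03, limma adjusted p = 0.000798). *Cenpf*, *Cenpe*, *Bub1b* and *Cdca8* were lower by log2 fold changes of -0.28, -0.23, -0.22 and -0.22, and *Aurka*, *Anln* and *Tpx2* by -0.13, -0.12 and -0.11. The call of *Cenpe* held in all 17 alternatives. Those of *Cenpf*, *Bub1b*, *Cdca8*, *Anln* and *Tpx2* were lost in 3, 12, 7, 7 and 8. *Aurka* was at 116 and 117 TPM in Control against 107 and 106 TPM in libraries labelled CypD OE, and its call (limma adjusted p = 0.046) was lost in 11 of the 17 alternatives.

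For other genes the difference was not past the threshold, which does not show that they were equal. *Aurkb* was at 116 and 120 TPM in Control against 124 and 112 TPM in libraries labelled CypD OE, with overlapping libraries (log2 fold change 0.00 ± 0.05). *Kif23* was at 192 and 186 TPM in Control against 169 and 183 TPM (log2 fold change -0.10, limma adjusted p = 0.129), and *Top2a* at 446 and 444 against 420 and 408 TPM (log2 fold change -0.10, limma adjusted p = 0.0606). In the latter pair of genes the groups did not overlap, although neither difference passed the test. *Plk1* was at 134 and 135 TPM in Control against 143 and 140 TPM (log2 fold change 0.08, limma adjusted p = 0.114), and *Birc5* at 295 and 313 against 314 and 321 TPM (log2 fold change 0.06, limma adjusted p = 0.272). These libraries lay near each other within a group, while in the phosphatase gene *Cdc25c* the libraries labelled CypD OE differed between themselves, at 32.5 and 42.5 TPM against 32.3 and 29.7 TPM in Control (log2 fold change 0.25, limma adjusted p = 0.233). *Mki67* was at 234 and 223 TPM in Control against 250 and 242 TPM (log2 fold change 0.11, limma adjusted p = 0.0759).

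The log2 fold changes of 8 more genes were between -0.07 and 0.11, and none was called; Control is given before CypD OE in each. *Prc1* was at 196 and 191 against 214 and 203 TPM, and *Hmmr* at 95.5 and 95.3 against 100 and 103 TPM. Among the motor genes, *Kif11* was at 94.3 and 95.8 against 100.1 and 98.0 TPM and *Kif20a* at 87.9 and 85.1 against 93.1 and 90.4 TPM. *Cdc20* (55.7 and 61.6 against 63.3 and 61.2 TPM), *Ube2c* (234 and 215 against 234 and 253 TPM) and *Cenpa* (92.7 and 104 against 105 and 103 TPM) had overlapping libraries, while *Ndc80* (81.7 and 80.9 against 74.6 and 80.4 TPM) did not (log2 fold change -0.07, limma adjusted p = 0.332).

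Set side by side, the CypD KO and the CypD OE comparison, which share no library, had 10 called genes in common. With 68% and 38% of the 50 genes called in these comparisons, shared calls are to be found even without a link. Shared calls over all tested genes were not counted, so the 10 are given as a description only. *Ckap2* and *Smc4* were higher in both, and *Aurka*, *Cdca8* and *Cenpe* lower in both. *Ccnb1*, *Nek2*, *Incenp* and *Bub3* were lower in CypD KO and higher in libraries labelled CypD OE, and *Anln* was higher in the former and lower in the latter. Of the 34 genes called in CypD KO cells, 24 were not called in the other comparison, and the difference between the comparisons was not tested. Of the 10 in common, *Ckap2*, *Ccnb1*, *Nek2* and *Cenpe* kept both calls in all 17 alternatives. *Ttk*, *Pttg1*, *Hmmr*, *Kif20b* and *Smc2* were called in none of the 3 comparisons made.

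Control cells at 1% O2 were also set against WT cells at 21% O2. Oxygen and stable transfection cannot be told apart here, and the WT libraries are the same as in the CypD KO comparison. Of the 50 genes, 9 were higher and 5 lower in Control (limma, adjusted p under 0.05), against 12.1% of all tested genes in each direction and 24.2% in either, with a median log2 fold change of 0.07 against 0.01 over all genes. Both counts fell when a WT or Control library was left out, as did those of all tested genes. The median of the 50 genes was 0.046 to 0.084 without a library. Of the 14 calls, 6 held in all 17 alternatives. *Ccnb2* was among the higher genes with 0.18 (limma adjusted p = 0.0483, lost in 12 alternatives), as were *Nusap1* with 0.28, *Mki67* with 0.25, *Kif23* with 0.20, and *Tpx2* and *Mad2l1* with 0.16 each. The calls of *Kif23*, *Tpx2* and *Mad2l1* were lost in 8, 3 and 5 alternatives, and those of *Nusap1* and *Mki67* in none.

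Genes of the kinetochore and its checkpoint kinase had the largest increases. *Cenpf* was at 47.2 and 52.1 TPM in WT against 69.5 and 63.8 TPM in Control (log2 fold change 0.42 ± 0.07, limma adjusted p = 0.0066). *Bub1* rose from 106 and 105 TPM to 131 and 143 TPM (log2 fold change 0.38 ± 0.05, limma adjusted p = 0.00233). *Nuf2* rose from 101 and 101 TPM to 123 and 127 TPM (log2 fold change 0.31 ± 0.03, limma adjusted p = 0.00143). In *Bub1* and *Nuf2* the libraries labelled CypD OE, also at 1% O2, were at 111 and 109 TPM and at 102 and 101 TPM, closer to WT than to Control. The largest decreases were those of *Gtse1*, *Ckap2* and *Nek2*. *Gtse1*, which regulates microtubules and p53 in G2 and M phase, fell from 66.5 and 64.8 TPM in WT to 48.4 and 53.1 TPM in Control (log2 fold change -0.36 ± 0.06, limma adjusted p = 0.00532) and was at 48.8 and 47.1 TPM in libraries labelled CypD OE. *Ckap2* and *Nek2* had log2 fold changes of -0.27 and -0.24 (limma adjusted p = 0.00926 and 0.0121), and *Nek2* was at 48.1 and 49.9 TPM in WT, 42.3 and 40.3 TPM in CypD KO, 41.7 and 41.1 TPM in Control, and 52.3 and 52.3 TPM in libraries labelled CypD OE. *Ccnb1* and *Kif20a* were the other genes lower in Control, with log2 fold changes of -0.21 and -0.15 (limma adjusted p = 0.0320 and 0.0372). These calls were lost in 6 and 11 alternatives.

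The direction in CypD KO cells was not particular to the 50 genes as a list. Of 91 other mitosis genes tested, 33 were lower and 10 higher in CypD KO (median log2 fold change -0.10), and of 51 S phase genes 33 were lower and 2 higher (median -0.23), beside 18.4% lower and 30.1% higher over all genes. Median-of-ratios rescaling, the GC and length correction and removal of chromosome medians left all of these medians below 0. The largest decreases among the other mitosis genes were those of *Zw10* (-0.62) and *Mad1l1* (-0.61), which act in the checkpoint, and of *Bora* (-0.61), an activator of Aurora A. The largest increases were those of *Ensa* (0.76), an inhibitor of the PP2A phosphatase that opposes CDK1, *Wee1* (0.54), the kinase that inhibits CDK1, and *Iqgap3* (0.47). Among S phase genes, *Gins1*, *Mcm10* and *Pold2*, which serve the replication fork, fell most (-0.86, -0.68 and -0.62), and *Ccne2* and *Rpa3* were the genes that rose (0.47 and 0.13). These were lower or higher by limma with adjusted p under 0.05.

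In the libraries labelled CypD OE, 24 of the 91 other mitosis genes were higher and 11 lower than in Control (median log2 fold change 0.06), and 15 of the 51 S phase genes were higher and 11 lower (median 0.02). The largest increases were those of 3 kinetochore genes, *Cenph* (0.64), *Zwint* (0.62) and *Cenpk* (0.55). The largest decreases were those of *Cenpt* (-0.56), also of the kinetochore, *Depdc1a* (-0.54) and *Lin52* (-0.45), a subunit of the MuvB core shared by DREAM and MMB. In Control minus WT, 12 of the 91 were higher and 10 lower, and 7 of the 51 S phase genes were higher and 7 lower.

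**Figure D5:**
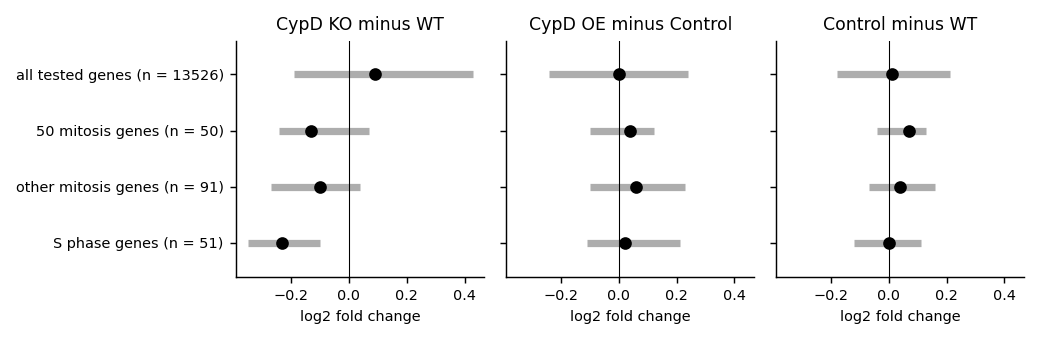
Points give the median log2 fold change of each list and bars its 25th to 75th percentile, for the 3 comparisons. In CypD KO minus WT the medians were -0.13 for the 50 genes, -0.10 for other mitosis genes and -0.23 for S phase genes, against 0.09 for all tested genes; in the other comparisons all medians lay within 0.07 of 0.

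The 50 genes lie on 18 chromosomes. Those higher in CypD KO cells lie on 7 and those lower on 15, with 4 chromosomes holding both. Of the 50, 27 share exon bases with another gene, 25 of them with a gene on the opposite strand, and since it was not stated whether strand was used in counting, reads of such pairs cannot be told apart. *Ccnb1*, *Ccnb2* and *Kif4* have a copy named in the annotation (*Ccnb1-ps*, *Ccnb2-ps* and *Kif4-ps*), between which reads may be divided.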

How the data were processed

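RNA was sequenced from 8 B16F10 libraries after ribosomal RNA depletion (KAPA RNA HyperPrep Kit with RiboErase), as paired reads of 150 bases. The authors trimmed with Cutadapt 3.4, mapped to GRCm39 using STAR 2.7.8a and quantified by RSEM 1.3.1. The deposited table holds TPM of 55414 genes, written by the authors to 2 decimals and scaled to the same total in every library. The authors' own tests used read counts with DESeq2 1.26.0, and read counts were not used here. The annotation release and the strand setting were not given in the sources used here.

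Groups came from the labels, and the replicate number from the library names, where the name without a suffix was taken as replicate 1. Whether replicates were separate cultures is not stated, so p-values measure the spread between these libraries, which may be technical. Tests were run on 13526 genes that reached 1 TPM in 2 or more libraries, as log2(TPM + 1), a scale that understates changes of low genes, with limma 3.58.1 in R 4.3.3 (group means in a single fit of all 8 libraries, 4 residual degrees of freedom, eBayes with trend). Tests were two-sided, with Benjamini-Hochberg adjustment over the 13526 genes and a threshold of 0.05. An exact permutation test of 2 against 2 libraries cannot go below p = 0.333. The test was checked on simulated data.

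The 50 genes, their roles and the lists beside them were chosen with earlier results of these data known. Values per library are given for 21 genes chosen by role and for the 3 largest increases and decreases of each comparison, and of the other lists the 3 largest in each direction were named. Genes were matched by Ensembl identifier to GENCODE vM39 (98.8% of genes), which gave positions and overlaps. Depth was estimated from low TPM values, for transcripts of 600 to 3000 bases: 83.2% to 86.3% came to a whole number of fragments within 0.15 (30% if evenly spread). It covers counting error only. The replicate numbers did not pair libraries: deviations from the group means of same-numbered libraries correlated at 0.108, -0.00175 and -0.0186 in the 3 comparisons.

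Alternatives were a pseudocount of 0.1, no filter, a minimum of 5 TPM, rescaling by median-of-ratios factors, a fit of only the 4 libraries compared, a replicate block, eBayes without trend and leaving out each library. Chosen after seeing the data were a correction for GC content and transcript length (loess, span 0.5) and removal of chromosome medians.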

Additional observations from a re-analysis of the deposited data

How the results depend on the processing

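Counts and medians below are of the 50 genes. For CypD KO minus WT, the higher genes (10) numbered 3 with the GC and length correction and 6 to 10 when a library was left out, and the lower genes (24) 15 to 24. The median (-0.13) was -0.238 with median-of-ratios rescaling, -0.293 with the GC and length correction, -0.219 with chromosome medians removed and -0.134 to -0.098 without a library. For CypD OE minus Control, the lower genes (10) numbered 6 with the replicate block, 5 with chromosome medians removed and 5 with eBayes without trend. They were fewer in each fit without a library, as were those of all tested genes. The median (0.04) was 0.018 with the GC and length correction and 0.011 to 0.061 without a library. For Control minus WT, the higher genes (9) numbered 5 with eBayes without trend. The lower genes (5) numbered 3 in the fit of its 4 libraries and 3 with eBayes without trend. They were fewer in each fit without a library, and the higher ones in each without a WT or Control library. The median of this comparison (0.07) was 0.047 with median-of-ratios rescaling, 0.036 with the GC and length correction and 0.046 to 0.084 without a library. The sign turned with a call for *Foxm1* (-0.222 with the GC and length correction, -0.265 with chromosome medians removed), *Mad2l1* (-0.259 with chromosome medians removed) and *Mki67* (-0.097 with the GC and length correction) in CypD KO minus WT. The causes were not tested. Of 1530 fold changes of 30 genes under 17 alternatives, 1399 stayed on the same side of the threshold without a called change of sign, 100 lost the call, 27 gained one and 4 reversed; for 11 fold changes that were not called, the sign turned under at least 1 alternative. With the replicate block, 9 genes were higher and 21 lower in CypD KO, 8 and 6 in CypD OE, and 9 and 4 in Control minus WT; with 2 pairs the block could not be checked further, and the numbers did not pair the libraries. Changes within the difference between replicates, a median of 0.093 to 0.099 over tested genes on the log2 scale, are at the limit of these data.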
